A study of Mus musculus with 32 samples.

Results

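The change shared by 2 oligonucleotides was measured in the striatum of YAC128 mice. The mean of the AON12.1 group and the scrambled group, each with equal weight, was set against YAC128 mice that received artificial cerebrospinal fluid (aCSF) alone. The comparison rests on 24 of the 32 libraries of the series, 8 per group, placed by their genotype and treatment labels, and every library is from its own numbered mouse. YAC128 is a Huntington disease model on a B6 background in which a yeast artificial chromosome carries the full-length human HTT gene with an expanded CAG repeat. AON12.1 is the antisense oligonucleotide of the study, and the series title places its aim at the caspase-6 cleavage site of HTT.

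All 3 groups carried the transgene and a cannula in the lateral ventricle, and all were injected 3 times under isoflurane. Dosing began at about 6 months of age and was repeated 2 and 4 weeks after the first injection, and the brain was taken at 12 months, after an MRI scan. Oligonucleotide mice received 500 µg of AON12.1 or of scrambled strand per injection in 10 µL of aCSF, and control mice 10 µL of aCSF. The values below therefore describe tissue months after the last injection. Wild-type (WT) littermates given aCSF, 8 libraries, entered the fit and are quoted as a reference level. The sequence and chemistry of both oligonucleotides are not given in the sources used here.

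Antisense oligonucleotides are short synthetic strands that pair with a chosen RNA, and their charged backbones also bind many proteins whatever the sequence. A scrambled strand is the usual control for effects that come with any such molecule. In the brain, injected oligonucleotides are taken up by neurons and by glia, among them microglia, the resident macrophages, which clear foreign material, signal through the adaptor Tyrobp and make the complement subunits C1qa, C1qb and C1qc. Complement tags material for clearance, with C4 downstream of C1q. In the striatum, most neurons are projection neurons of the direct and indirect pathways.

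Gene counts per YAC128 library ran from 658934 to 1419313. The tissue labels matched the markers: over the 24 libraries the projection neuron markers Penk, Ppp1r1b and Tac1 had 67878, 23956 and 15356 counts. Markers of blood leukocytes were close to 0, with 3 counts of Ccr2, 1 of Cd3e, 2 of Cd79a and 7 of S100a8. The share of counts in no annotated feature averaged 25.7% ± 4.92 (SD, n = 8) in aCSF libraries and 22.99% ± 4.94 (SD, n = 16) in oligonucleotide libraries, a difference of -2.66 percentage points (two-sided exact test by permutation of the libraries, p = 0.226, or 0.507 when adjusted over 9 tests). The same difference was -8.83 points in animals numbered from 18 (4 against 4 libraries, exact p = 0.0286, adjusted p = 0.257) and 1.65 points in animals numbered from 19 (4 against 12, exact p = 0.597). Of the aCSF animals 4 of 8 had numbers from 18, against 4 of 16 oligonucleotide animals. What the numbers stand for is not stated in the labels.

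Of 10679 genes tested, 24 were called at an adjusted p under 0.05 (edgeR quasi-likelihood test, Benjamini-Hochberg adjustment), which is 0.225%. Of these, 18 (0.169%) were higher with oligonucleotide and 6 (0.0562%) were lower. The higher genes held microglial and complement genes (Lyz2, Tyrobp, Cd52, Laptm5, C1qb, C4b), the arginine methyltransferase gene Prmt8, the oligodendrocyte protease gene Klk6 and neuronal genes such as Kcnh1 and Rasgef1a. The lower genes were Ttr, Ints6l, Adssl1, Bend6, Hyi and Hypk. A further check asked whether each oligonucleotide alone stood apart from aCSF, in the same direction at an unadjusted p under 0.05. That held for 23 genes (0.215%), 17 higher and 6 lower, and the exception was 1110038B12Rik. Both single comparisons use the same 8 aCSF libraries and are parts of the mean, so their likeness is no independent result. With an adjusted p under 0.05 required in each, 3 genes were left, Prmt8, Lyz2 and Tyrobp.

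AON12.1 against aCSF alone had 33 called genes (0.309%), scrambled against aCSF 9 (0.0843%), and AON12.1 against scrambled 15 (0.140%). An unadjusted p under 0.05 for the mean was seen for 1286 genes (12.0%), 703 of them higher (6.58%) and 583 lower (5.46%), where 534 are due by chance. The median log2 fold change over all tested genes was -0.00. In 8 of the 24 genes (Prmt8, Lyz2, Tyrobp, C4b, C1qb, Klk6, Cd52 and 1110038B12Rik) the call held in each of the 24 fits that left out 1 YAC128 library. The other 16 lost it in at least 1 such fit, most often without an aCSF library, and their numbers are given with each gene. The count itself turned on single libraries: it was 9 without aCSF replicate 4, 13 without replicate 2, 14 without replicate 3 or replicate 6, 101 without replicate 8 and 41 without AON12.1 replicate 7. DESeq2 called 80 genes, 13 of them among these 24, and limma voom 25, with 22 among them. The other 11 had no adjusted p in DESeq2, which therefore neither called nor rejected them. They were Lyz2, Cd52, Klk6, Kcnh1, 1110038B12Rik and the 6 lower genes.

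**Figure D1:**
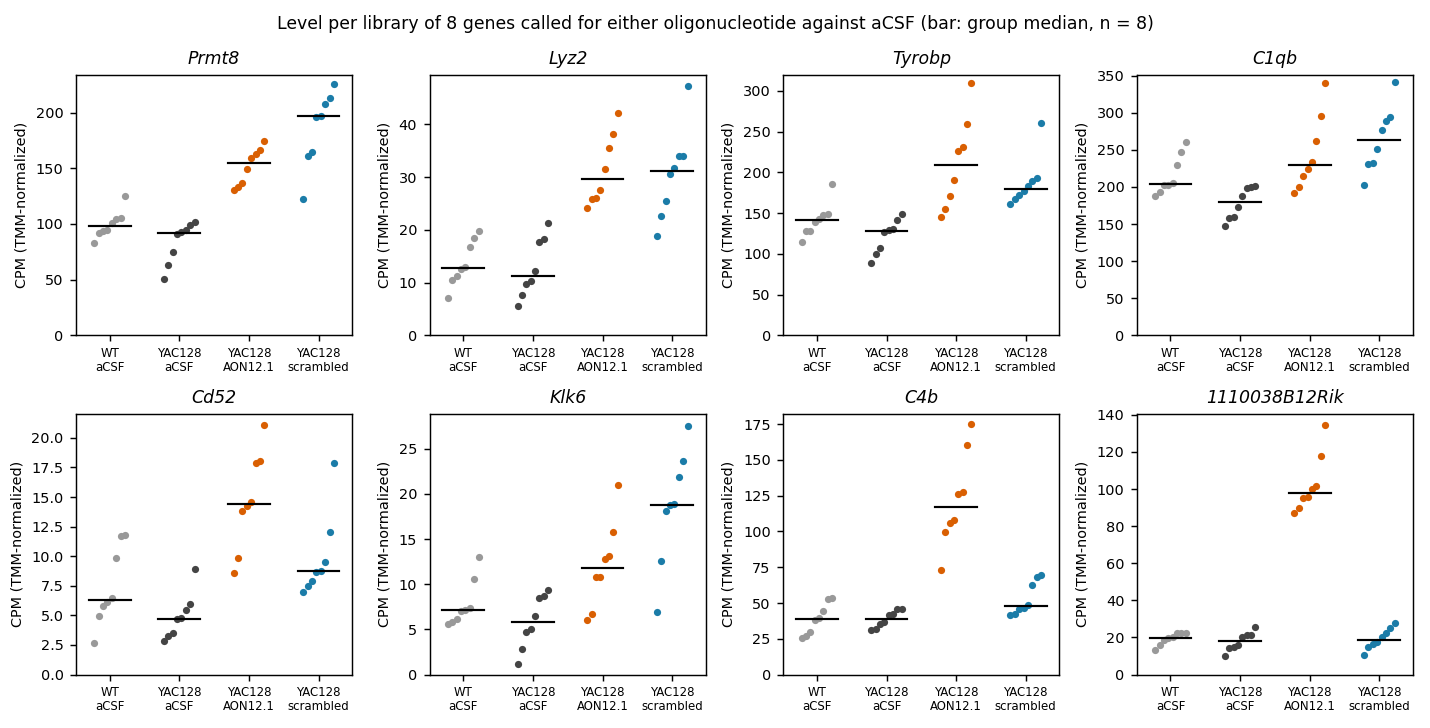
TMM-normalized CPM (counts scaled to library size, linear axes) of 8 called genes in every library of the 4 groups. Points are libraries and bars are group medians (n = 8). For Prmt8 all 16 oligonucleotide libraries lie above the highest aCSF library at 101 CPM, while 1110038B12Rik is high in the AON12.1 group only.

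Prmt8, a brain-enriched protein arginine methyltransferase anchored at the plasma membrane, gave the smallest p of the genes apart from aCSF with each oligonucleotide. Its level (ENSMUSG00000030350, chromosome 6) ran from 50.5 to 101 CPM in aCSF libraries, with a median of 91.6. With AON12.1 it lay between 131 and 174 CPM (median 154), and with the scrambled strand between 122 and 225 CPM (median 197). Every oligonucleotide library was above every aCSF library, and all but 1 were also above the highest WT library at 125 CPM. The mean difference was 1.01 ± 0.11 (log2 fold change ± SE, 2.02-fold, adjusted p = 1.29e-07), with 0.86 for AON12.1 and 1.16 for scrambled. Prmt8 was the only gene of those tested (0.00936%) with all 16 oligonucleotide libraries above the aCSF group, and 0 genes (0%) had all 16 below it. The difference between the oligonucleotides was -0.30 (95% interval -0.53 to -0.06, adjusted p = 0.552). In WT mice the level ran from 82.4 to 125 CPM with a median of 97.8, which overlaps the YAC128 aCSF range.

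Among microglial genes, Lyz2 and Tyrobp had the smallest p. Lyz2, the lysozyme of macrophages (ENSMUSG00000069516, chromosome 10), had 5.56 to 21.3 CPM in aCSF libraries (median 11.2). It reached 24.2 to 42.1 CPM with AON12.1 (median 29.6) and 18.7 to 47.3 CPM with the scrambled strand (median 31.2). All 8 AON12.1 libraries and 7 of 8 scrambled libraries lay above the aCSF group, and WT libraries (7.06 to 19.7 CPM) lay below every AON12.1 library. Lyz2 rose by 1.28 ± 0.19 (2.43-fold, adjusted p = 0.000124), with 1.29 for AON12.1 and 1.28 for scrambled, and the difference between them was 0.01 (95% interval -0.37 to 0.40). The count files hold a separate summary line for alignments that were not unique. Reads that align equally to its near copy Lyz1 may fall there and count for neither gene.

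Tyrobp, the signalling adaptor of Trem2 and other myeloid receptors (ENSMUSG00000030579, chromosome 7), had 89.1 to 149 CPM in aCSF libraries (median 128). Its level was 145 to 309 CPM with AON12.1 (median 209) and 161 to 261 CPM with scrambled (median 180.0). The scrambled group lay wholly above aCSF and the AON12.1 group did so in 7 of 8 libraries. The rise was 0.71 ± 0.12 (1.63-fold, adjusted p = 0.000969), with 0.79 and 0.62 for the single oligonucleotides and an AON12.1 minus scrambled difference of 0.16 (95% interval -0.10 to 0.42).

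Cd52, a small surface glycopeptide of leukocytes, was measured at low levels: 2.84 to 8.90 CPM in aCSF (median 4.73), 8.61 to 21.1 CPM with AON12.1 (median 14.4) and 6.95 to 17.9 CPM with scrambled (median 8.72). Only 3 of 8 scrambled libraries were above the highest aCSF library, against 7 of 8 with AON12.1. Cd52 rose by 1.27 ± 0.24 (adjusted p = 0.00853), 1.55 with AON12.1 and 0.99 with scrambled. The 8 aCSF libraries held 40 counts in all. By these levels, Cd52 passed the filter on low counts largely through oligonucleotide libraries, where it was higher, and not through aCSF libraries. Without aCSF replicates 2 and 4 together it had 1.12 (adjusted p = 0.146). Laptm5, a lysosomal membrane protein of blood-derived cells and microglia, had 36.7 to 80.7 CPM in aCSF (median 53.4), 70.9 to 119.8 with AON12.1 (median 79.1) and 71.8 to 94.2 with scrambled (median 76.6). Its ranges overlapped in most libraries. Laptm5 rose by 0.51 ± 0.11 (adjusted p = 0.028), and without aCSF replicate 2, 4, 5, 6 or 7 the call was lost, with values down to 0.44 and an adjusted p of up to 0.126.

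Most other members of the microglial lists were not called. Of 26 listed homeostatic microglia genes 22 passed the filter on low counts, 2 were called (Tyrobp and Laptm5, both higher), and the median log2 fold change was 0.08. Of all genes tested, 0.225% were called. The purinergic receptor P2ry12 (-0.16, adjusted p = 0.742), Tmem119 (-0.01, adjusted p = 0.998) and the fractalkine receptor Cx3cr1 (0.01, adjusted p = 0.988) had values close to 0, and the sign of the last pair changed with the scaling or the test. P2ry12 levels of 15.6 to 28.6 CPM in aCSF, 10.98 to 29.1 with AON12.1 and 13.8 to 27.5 with scrambled overlapped almost fully. The growth factor receptor Csf1r had 0.20 (adjusted p = 0.313), the Fc receptor-like gene Fcrls 0.77 (adjusted p = 0.0823) and the lipid receptor Trem2 0.52 (adjusted p = 0.131). In bulk tissue, fewer cells of a type and less RNA per cell cannot be told apart, nor can more cells and more RNA per cell.

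Of 38 listed genes of activated microglia 19 passed the filter, 2 were called (Lyz2 and Cd52), 17 had a higher value, and the median was 0.17. Of all genes tested, 0.225% were called and 49.8% had a higher value. Fcer1g, the common Fc receptor gamma chain, lay just outside the threshold (0.49, adjusted p = 0.0509), and DESeq2 called it. It had 76.5 to 97.7 CPM in aCSF, 93.4 to 166 with AON12.1 and 84.8 to 159 with scrambled, and 6 of 8 libraries of each oligonucleotide were above the aCSF group. The Fc receptor Fcgr3 had 0.60 (adjusted p = 0.0777), the MHC class II chaperone Cd74 0.57 (adjusted p = 0.203) and B2m 0.34 (adjusted p = 0.277). Fcgr3, Trem2, Cd74 and C1qc lie outside the rule for named genes and were chosen after their values were seen, as were P2ry12, Tmem119, Cx3cr1 and Csf1r. The list of blood and leukocyte genes had 5 of 27 members tested, all 5 higher and 0 called, with a median of 0.24, led by the haemoglobin gene Hbb-bs at 0.35 (adjusted p = 0.488). Its summed level was 729 to 1595 CPM in aCSF, 693 to 2549 with AON12.1 and 829 to 1933 with scrambled libraries. Blood content as a part of the microglial values was not tested.

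**Figure D2:**
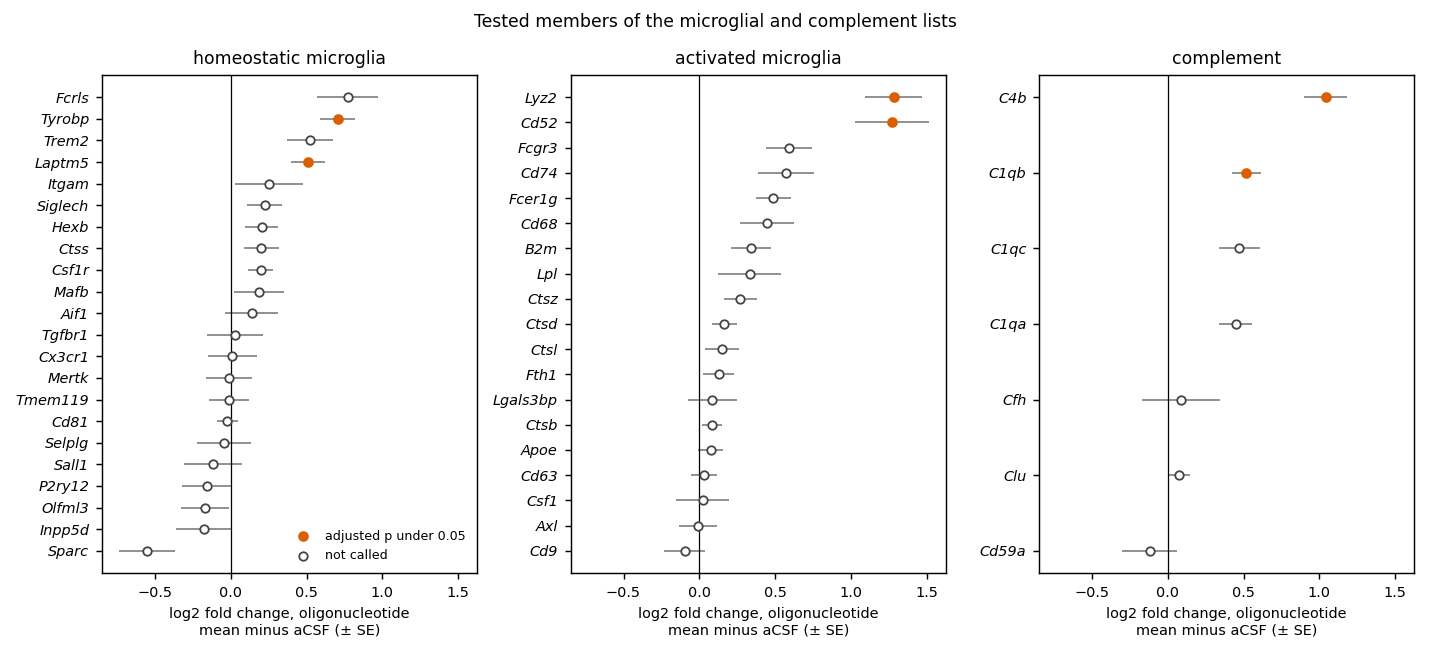
Log2 fold change (oligonucleotide mean minus aCSF, ± SE) of the tested members of 3 lists. Filled points are called genes, 2 in each list, and Cx3cr1, Tmem119 and P2ry12 lie near 0.

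Complement genes were next. C1qb, 1 chain of the C1q trimer (ENSMUSG00000036905, chromosome 4), had 147 to 201 CPM in aCSF libraries (median 180.0), 192 to 339.9 with AON12.1 (median 229) and 203 to 342 with scrambled (median 264). All scrambled libraries and 6 of 8 AON12.1 libraries were above the aCSF group. C1qb rose by 0.52 ± 0.10 (1.43-fold, adjusted p = 0.00738), with 0.46 and 0.58 for the single oligonucleotides and a difference of -0.11 (95% interval -0.34 to 0.11). The other chains had like values without a call: C1qa had 0.45 (adjusted p = 0.0509) and C1qc 0.47 (adjusted p = 0.136). C1qa ran from 54.5 to 89.5 CPM in aCSF, from 73.6 to 121 with AON12.1 and from 91.2 to 149 with scrambled, so that 3 AON12.1 libraries and all 8 scrambled libraries were above aCSF. Of 19 listed complement genes 7 passed the filter, 2 were called (C4b and C1qb), 6 had a higher value, and the median was 0.45. Of all genes tested, 0.225% were called and 49.8% had a higher value. DESeq2 called 4 of the complement genes, C4b and all 3 C1q chains, and voom 2.

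C4b, the complement component cleaved downstream of C1, rose with the mean by 1.04 ± 0.14 (2.06-fold, adjusted p = 3.16e-05), but unequally. It had 31.0 to 45.6 CPM in aCSF (median 39.0), 73.2 to 175 with AON12.1 (median 117) and 41.4 to 69.4 with scrambled (median 47.6). All AON12.1 libraries lay above both other YAC128 groups, and 6 of 8 scrambled libraries lay above aCSF. The single values were 1.64 for AON12.1 and 0.44 for scrambled (unadjusted p = 0.0109, adjusted p = 0.373). AON12.1 exceeded scrambled by 1.19 (95% interval 0.89 to 1.499, adjusted p = 6.67e-06). Reads that match the copy C4a as well make the C4b counts uncertain.

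Since Lyz2, C1qb and Laptm5 were all higher with both oligonucleotides and are macrophage genes, the 250 bases before their start sites are shown. They come from RefSeq, build GRCm38.p6, and were read on the gene's own strand; 17 of the 24 called genes had an entry, and for Tyrobp and Cd52 none was found. Capitals mark the hexamer GGAAGT, or ACTTCC where it lies on the other strand, which holds the GGAA core bound by ETS factors such as the myeloid factor PU.1. The windows are chr10:117282273-117282522 (minus strand) for Lyz2, chr4:136886201-136886450 (minus strand) for C1qb and chr4:130913066-130913315 (plus strand) for Laptm5.
Lyz2: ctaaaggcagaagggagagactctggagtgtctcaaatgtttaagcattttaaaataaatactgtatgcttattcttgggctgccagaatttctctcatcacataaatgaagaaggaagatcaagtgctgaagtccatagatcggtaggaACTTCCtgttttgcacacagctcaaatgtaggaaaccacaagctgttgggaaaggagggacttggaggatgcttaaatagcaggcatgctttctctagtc
C1qb: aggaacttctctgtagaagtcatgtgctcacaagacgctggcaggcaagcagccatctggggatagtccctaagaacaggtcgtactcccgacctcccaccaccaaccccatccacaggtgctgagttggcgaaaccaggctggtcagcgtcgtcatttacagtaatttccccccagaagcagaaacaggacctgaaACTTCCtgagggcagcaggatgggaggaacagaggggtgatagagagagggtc
Laptm5: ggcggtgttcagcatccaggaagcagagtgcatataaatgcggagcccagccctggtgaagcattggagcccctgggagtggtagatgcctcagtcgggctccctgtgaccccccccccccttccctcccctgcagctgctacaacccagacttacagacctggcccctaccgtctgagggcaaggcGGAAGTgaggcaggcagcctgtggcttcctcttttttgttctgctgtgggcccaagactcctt
The match lay 100 to 95 bases before the start in Lyz2, 53 to 48 in C1qb and 63 to 58 in Laptm5. A match to GGAAGT on either strand was present in 19.7% of all 32851 windows of this length and in 25.5% of the 8135 tested genes with an entry. Among called genes with an entry, 9 of 17 held it. The hexamer was chosen with the results known, and a match is a description of the letters, not a site.

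Genes of other glia were also among the calls. Klk6, a secreted serine protease of mature oligodendrocytes (ENSMUSG00000050063, chromosome 7), had 1.11 to 9.39 CPM in aCSF (median 5.80), 6.02 to 21.0 with AON12.1 (median 11.8) and 6.90 to 27.5 with scrambled (median 18.8). In 6 AON12.1 and 7 scrambled libraries it was above the aCSF group. Klk6 rose by 1.35 ± 0.26 (2.55-fold, adjusted p = 0.00853), 1.03 with AON12.1 and 1.66 with scrambled, and the difference was -0.63 (95% interval -1.14 to -0.12, adjusted p = 0.555). The aCSF group held 46 counts of Klk6 in all. By these levels, the gene passed the filter on low counts largely through oligonucleotide libraries, where it was higher, and not through aCSF libraries. No other gene of the myelin list was called by edgeR: of 43 listed and tested, 19 were higher and 24 lower, with a median of -0.02. Apod, a lipocalin of oligodendrocytes and astrocytes, came nearest (0.41, adjusted p = 0.0509) and was called by both DESeq2 and voom, with all 8 AON12.1 and 5 of 8 scrambled libraries above aCSF.

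S100b, the calcium-binding protein of astrocytes, had 407 to 569 CPM in aCSF (median 481), 522 to 808 with AON12.1 (median 627) and 535 to 787 with scrambled (median 594). The ranges overlapped, with 6 and 5 of 8 libraries above aCSF. S100b rose by 0.36 ± 0.08 (adjusted p = 0.0448), a call kept in 6 of 24 fits without 1 library and lost in the others, where its value was at least 0.32 and the adjusted p up to 0.118 (without aCSF replicate 6). It was the 1 gene called by edgeR, and by voom, of 29 tested homeostatic astrocyte genes, whose median was 0.02. The cystatin gene Cst3 (0.31, adjusted p = 0.0829) and the glutamate transporter gene Slc1a2 (0.27, adjusted p = 0.0906) were not called by edgeR or voom but were by DESeq2, which called 3 genes of the list. Of 36 listed genes of reactive astrocytes 11 passed the filter and 0 were called (median 0.12, 1 with an unadjusted p under 0.05). Gfap, the intermediate filament of reactive astrocytes, had 33.8 to 69.2 CPM in aCSF, 50.3 to 107 with AON12.1 and 37.3 to 87.3 with scrambled (0.63 ± 0.16, adjusted p = 0.0823).

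Several neuronal genes were higher. Rasgef1a, an exchange factor of small GTPases, had 205 to 383 CPM in aCSF (median 287), 359 to 512 with AON12.1 (median 422) and 342 to 439 with scrambled (median 410.1). It rose by 0.49 ± 0.10 (adjusted p = 0.0277), with 7 and 6 of 8 libraries above aCSF. Kcnh1, a voltage-gated potassium channel of the EAG family, had 26.0 to 39.4 CPM in aCSF (median 31.1), 27.4 to 58.2 with AON12.1 (median 50.6) and 37.9 to 62.3 with scrambled (median 51.3), and rose by 0.56 ± 0.12 (adjusted p = 0.028). Both calls turned on single libraries: without aCSF replicate 2, Rasgef1a had 0.42 (adjusted p = 0.117) and Kcnh1 0.51 (adjusted p = 0.126). Rasgef1a was also lost without aCSF replicate 3, 4 or 6, and Kcnh1 without aCSF replicate 1, 4, 5, 6 or 7 or AON12.1 replicate 3.

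Sort1, the sorting receptor sortilin, had 119 to 219 CPM in YAC128 aCSF (median 152), 174 to 270.3 with AON12.1 (median 206) and 185 to 279 with scrambled (median 224), beside 185 to 219 CPM in WT (median 202). The lowest aCSF libraries lay under every oligonucleotide and WT library, and the highest did not. Sort1 rose by 0.43 ± 0.09 (adjusted p = 0.0277), and the call was lost without aCSF replicate 2, 3, 4, 5 or 6, with 0.37 (adjusted p = 0.126) without replicate 2. Rab6b, a Golgi trafficking GTPase of neurons, showed a like order of levels: 475 to 595 CPM in aCSF, 564 to 655 with AON12.1, 544 to 754 with scrambled and 577 to 665 in WT. Its rise of 0.27 ± 0.06 (adjusted p = 0.0452) was called in 8 of 24 fits without 1 library, with 0.25 (adjusted p = 0.167) without aCSF replicate 2.

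Of 46 listed striatal projection neuron genes 44 passed the filter and 0 were called, while 42 had a higher value and 18 of these an unadjusted p under 0.05. Over all genes tested, 49.8% had a higher value and 6.58% were higher at that p. DESeq2 called 2 genes of the list, Hpca and Camk2n1, and voom 0. Their median was 0.28, with 0.42 for AON12.1 and 0.15 for scrambled, against -0.00 over all genes. Camk2n1 (0.51, adjusted p = 0.0872), the calcium sensor gene Hpca (0.46, adjusted p = 0.158) and Gnal, a G protein subunit of dopamine signalling (0.33, adjusted p = 0.206), had the smallest p. The summed level of the list was 8506 to 15237 CPM in aCSF (median 13557), 13753 to 24494 with AON12.1 (median 17105) and 9718 to 18441 with scrambled (median 14569), so the groups overlap. In the indirect pathway list 7 of 9 members were tested and all 7 were higher (median 0.27), with Adora2a at 0.47 (adjusted p = 0.215) and the enkephalin precursor Penk at 0.33 (adjusted p = 0.338). In the direct pathway list 8 of 10 were tested and 5 were higher (median 0.08), with 0 called in either list. Interneuron genes had a median of -0.04 over 16 tested members, and the somatostatin gene Sst, called by DESeq2 alone, had 0.37 (adjusted p = 0.0829).

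Lists of synaptic and channel genes also had positive medians. Beside their counts, 49.8% of all genes tested had a higher value and 6.58% were higher at an unadjusted p under 0.05. Of 38 listed receptor and postsynaptic genes 37 were tested, 31 were higher, 13 had an unadjusted p under 0.05 and a higher value, and 0 were called (median 0.18), while DESeq2 called 3 (Dlg3, Camk2a and Shisa9) and voom 1 (Dlg3). The kinase gene Camk2a came nearest with 0.44 (adjusted p = 0.0509), from 365 to 664 CPM in aCSF to 513 to 781 with AON12.1 and 551 to 959 with scrambled, and the AMPA receptor auxiliary gene Shisa9 had 0.40 (adjusted p = 0.0591). Of 42 tested channel genes edgeR and voom called Kcnh1, 33 were higher, and the median was 0.15. DESeq2 gave Kcnh1 no adjusted p and called 3 others (Kcnh3, Kcnj4 and Cacna1i). The sodium leak channel gene Nalcn had -0.47 (adjusted p = 0.0649), with -0.82 for AON12.1 and -0.11 for scrambled, a difference of -0.71 (adjusted p = 0.0157). Synaptic vesicle genes had a median of 0.08 (23 of 28 higher, 0 called) and immediate early genes 0.16 (19 of 29 higher, 0 called). Homer1, a postsynaptic scaffold, and Egr3, an activity-induced transcription factor, had 0.40 (adjusted p = 0.163) and 0.55 (adjusted p = 0.179).

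**Figure D3:**
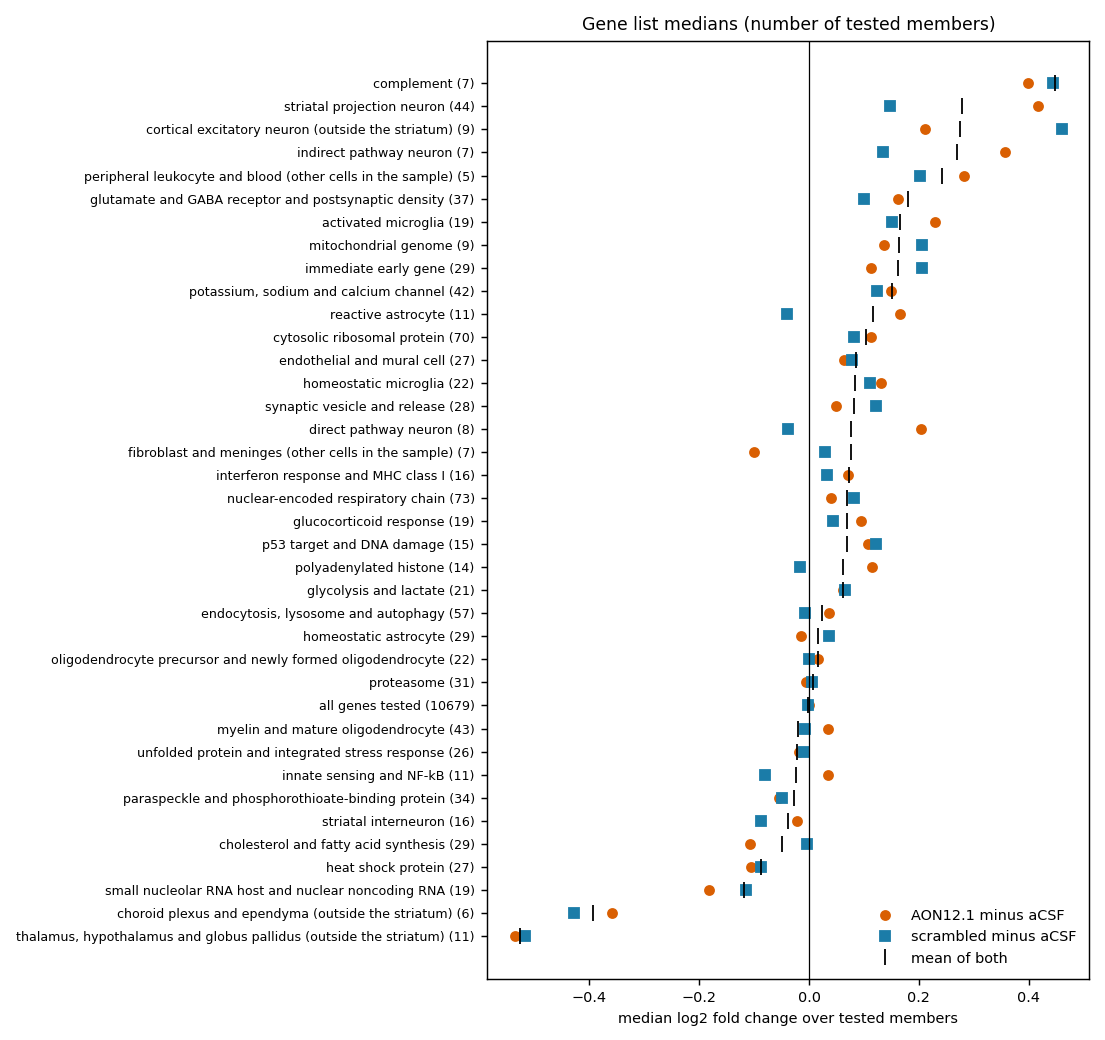
Median log2 fold change of each gene list over its tested members (number in brackets), for AON12.1 minus aCSF, scrambled minus aCSF and the mean of both. In the mean of both, complement has the highest median at 0.45 and the list of thalamus, hypothalamus and globus pallidus genes the lowest at -0.53. Both single comparisons use the same aCSF libraries.

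The other called genes that were higher were of mixed function. Rps26, a protein of the small ribosomal subunit, had 184 to 246 CPM in aCSF (median 207), 244 to 308 with AON12.1 (median 288) and 201 to 423 with scrambled (median 302), with 7 and 6 of 8 libraries above aCSF. It rose by 0.44 ± 0.09 (adjusted p = 0.0206), and the call was lost without aCSF replicate 2 (0.41, adjusted p = 0.0738), 3, 4 or 6. Ribosomal protein genes have many processed copies, so its counts are uncertain. Of 70 tested ribosomal protein genes Rps26 was the 1 called by edgeR and by voom, while DESeq2 called 3 (Rps3, Rps14 and Rps26). In this list 54 were higher (49.8% of all genes tested were), and the median was 0.10. Ap1ar, a regulator of the AP-1 adaptor in endosomal transport, had 44.6 to 68.3 CPM in aCSF, 59.2 to 83.8 with AON12.1 and 60.0 to 86.2 with scrambled. It rose by 0.39 ± 0.09 (adjusted p = 0.033), a call kept in 16 of 24 fits without 1 library, with 0.35 (adjusted p = 0.149) without aCSF replicate 2.

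The transcription factor gene Tshz1 (0.47 ± 0.11) and the ubiquitin ligase gene Arel1 (0.42 ± 0.10) had an adjusted p of 0.0452, as did Rab6b, and these 3 were named after their values were seen, being past the 15 higher genes of the rule. Tshz1 had 48.0 to 109 CPM in aCSF, 99.9 to 136 with AON12.1 and 97.5 to 133 with scrambled. Arel1 had 61.8 to 97.4, 92.4 to 129 and 88.7 to 132 CPM in the same order. In both genes 6 of 8 libraries of each oligonucleotide exceeded the aCSF group. Each was called in 8 of 24 fits without 1 library, with adjusted p up to 0.177 for Tshz1 and 0.207 for Arel1 without aCSF replicate 2.

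Of the lower genes, Ints6l and Adssl1 had the most oligonucleotide libraries below the aCSF group. Ints6l, which resembles the Integrator subunit gene Ints6 (X chromosome), had 15.96 to 34.0 CPM in aCSF (median 21.5), 6.02 to 14.8 with AON12.1 (median 11.7) and 6.31 to 21.9 with scrambled (median 13.9). All 8 AON12.1 and 7 of 8 scrambled libraries lay below the aCSF group, and WT libraries at 8.45 to 25.9 CPM spanned both. Ints6l fell by 0.90 ± 0.18 (adjusted p = 0.0206), and the call was lost in 1 of 24 fits, without aCSF replicate 3 (-0.79, adjusted p = 0.0921). Adssl1, an adenylosuccinate synthase of purine synthesis, had 31.7 to 53.2 CPM in aCSF (median 36.6), 14.7 to 28.1 with AON12.1 (median 25.9) and 21.0 to 33.9 with scrambled (median 26.1). It fell by 0.58 (SE 0.13, adjusted p = 0.0337), with 8 and 6 of 8 libraries below aCSF, and was not called without aCSF replicate 3, 4, 5 (-0.50, adjusted p = 0.119) or 6. Of 16 other settings with an adjusted p for Adssl1, 10 kept the call.

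Hypk, a huntingtin-interacting chaperone that also binds the NatA acetyltransferase, had 22.2 to 33.8 CPM in aCSF, 13.998 to 21.6 with AON12.1 and 18.1 to 27.8 with scrambled. The AON12.1 group lay wholly below aCSF, while 3 of 8 scrambled libraries did. Hypk fell by 0.50 (SE 0.12, adjusted p = 0.0476), with -0.71 for AON12.1 and -0.29 for scrambled, and the difference of -0.42 had a 95% interval of -0.71 to -0.13 (adjusted p = 0.525). Bend6, a BEN domain protein that acts on Notch targets, fell by 0.48 (SE 0.11, adjusted p = 0.04). It had -0.71 with AON12.1 and -0.26 with scrambled (adjusted p = 0.499), and 6 and 2 of 8 libraries lay below the aCSF group. The difference between the oligonucleotides was -0.45 (95% interval -0.72 to -0.18, adjusted p = 0.335). Hyi, a hydroxypyruvate isomerase, fell by 0.56 (SE 0.13, adjusted p = 0.0476), but aCSF replicate 2 alone stood at 115 CPM against a group median of 66.0, and without it Hyi had -0.41 (adjusted p = 0.294). These calls held in 10 (Hypk), 12 (Bend6) and 7 (Hyi) of 24 fits without 1 library. Without aCSF replicate 2, Hypk had -0.46 (adjusted p = 0.185) and Bend6 -0.44 (adjusted p = 0.175).

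**Figure D4:**
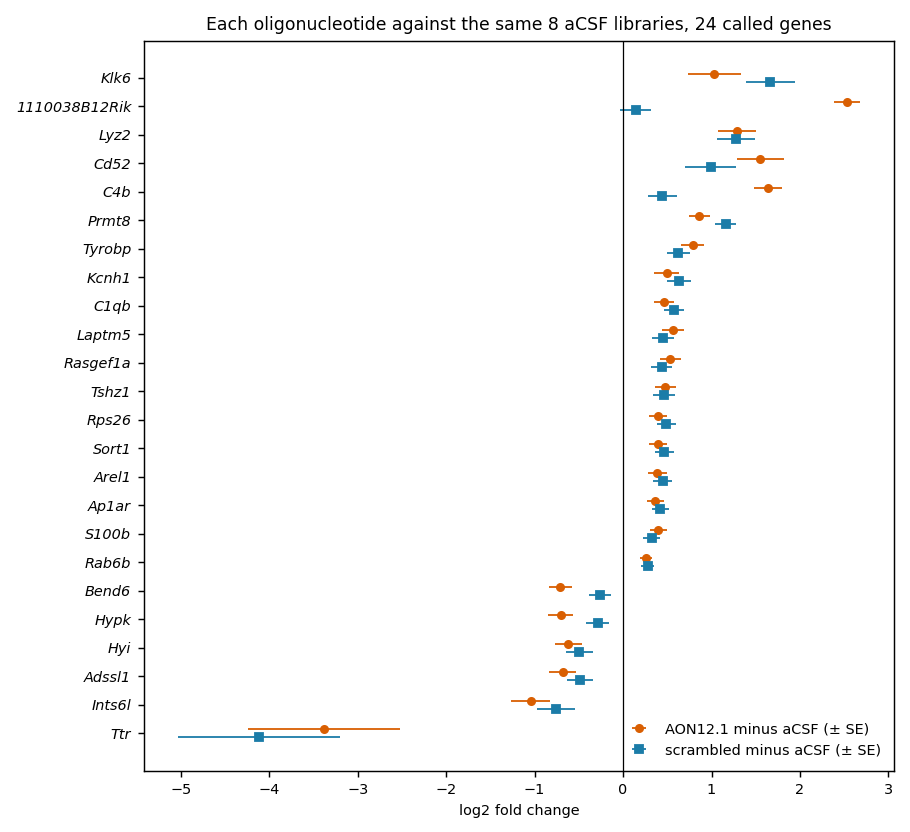
Log2 fold change (± SE) of the 24 called genes for AON12.1 minus aCSF and scrambled minus aCSF, which share the 8 aCSF libraries. The points lie on the same side of 0 for each gene, and lie farthest apart for 1110038B12Rik, at 2.53 and 0.14.

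Ttr, the transthyretin gene of choroid plexus, had the lowest log2 fold change (-3.75 ± 0.69, adjusted p = 0.00545), and 1 aCSF library set it. That library, aCSF replicate 4, had 3191 CPM, while the other 7 aCSF libraries had 3.75 to 151 CPM. AON12.1 libraries had 3.23 to 153 CPM (median 18.5), scrambled libraries 7.97 to 40.3 CPM (median 24.8) and WT libraries 4.66 to 56.7 CPM. Without replicate 4 the value was -0.38 (adjusted p = 0.83). Choroid plexus and ependyma genes, which mark tissue beside the striatum, had 6 of 15 members tested and all 6 lower, with a median of -0.39, and Ttr was the 1 called (voom called 0 of them). Of all 10679 genes tested, 5366 had a lower value and 0.0562% were lower with a call. The summed level of the choroid plexus and ependyma list was 244 to 4124 CPM in aCSF, 247 to 483 with AON12.1 and 237 to 305 with scrambled, with medians of 334, 288 and 289. The prolactin receptor gene Prlr had -0.85 (adjusted p = 0.179).

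No marker of thalamus, hypothalamus or globus pallidus was called by edgeR or voom: 11 of 16 were tested, all 11 had a lower value, and 4 had an unadjusted p under 0.05 (median -0.53). Over all genes tested, 5.46% were lower at that p, and of the 10679 genes 5313 had a higher value and 5366 a lower value. The oxytocin gene Oxt (-1.75, adjusted p = 0.207) had 31.9 to 802 CPM in aCSF, 5.55 to 244 with AON12.1 and 8.75 to 236 with scrambled, and its 2 highest values, 802 and 694 CPM, were those of aCSF replicates 2 and 5. Gpx3, a secreted glutathione peroxidase, had -0.89 (adjusted p = 0.0823) and was the 1 called by DESeq2. The summed level of the list overlapped between groups, with 379 to 3330 CPM in aCSF, 265 to 994 with AON12.1 and 297 to 1179 with scrambled (medians 539, 414 and 407), and its highest value was that of aCSF replicate 2. In WT libraries the summed level ran from 245 to 2218 CPM, with a median of 959. Cortical excitatory genes had 9 of 16 members tested, 8 higher and 0 called (median 0.28), with Lamp5 at 0.27 (adjusted p = 0.33), Rspo1 at -0.59 (adjusted p = 0.205), and a summed level of 251 to 844 CPM in aCSF, 273 to 839.8 with AON12.1 and 324 to 1596 with scrambled.

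**Figure D5:**
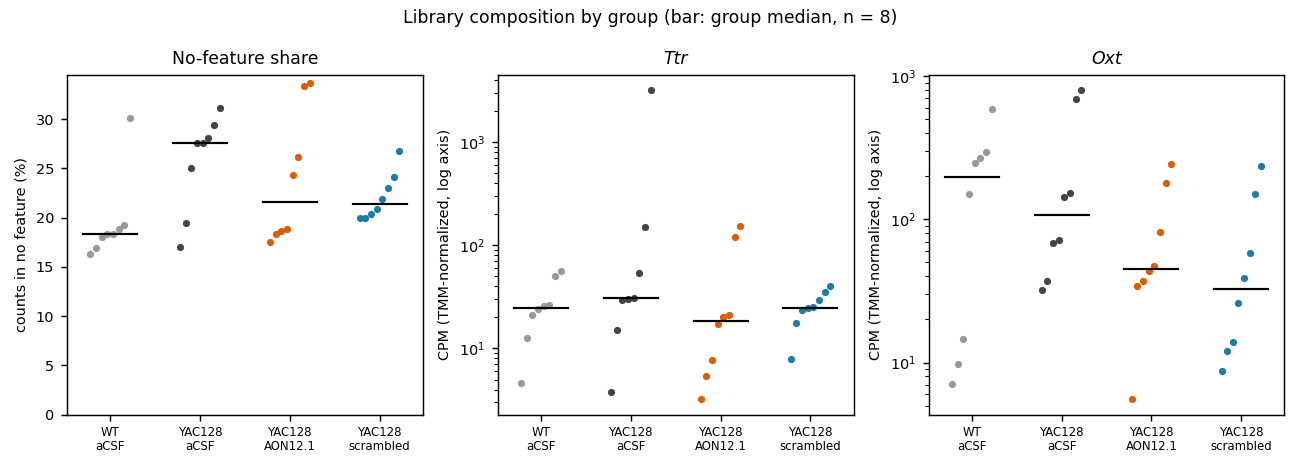
Share of counts in no feature (percent, linear axis), and CPM of Ttr and Oxt (log axes), in every library of the 4 groups. Bars are group medians (n = 8). A single aCSF library stands at 3191 CPM of Ttr, and aCSF libraries hold the highest values of Oxt.

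With scores of cortex and choroid plexus markers as covariates, 8 genes were called, all higher. They were the genes called in every fit without 1 library: Prmt8 (0.87, adjusted p = 4.87e-07), Lyz2 (1.31, adjusted p = 0.000262), Tyrobp (0.68, adjusted p = 0.00524), C1qb (0.52, adjusted p = 0.0182), C4b (1.16, adjusted p = 3.82e-06), Klk6 (1.54, adjusted p = 0.00286), Cd52 (1.33, adjusted p = 0.0179) and 1110038B12Rik (1.40, adjusted p = 4.87e-07). In libraries with at most 25% of counts in no feature, 4 of these lost the call: Tyrobp (0.72, adjusted p = 0.124), C1qb (0.47, adjusted p = 0.845), Klk6 (1.47, adjusted p = 0.796) and Cd52 (1.25, adjusted p = 0.796). That set held only 3 aCSF libraries, with 5 of AON12.1 and 7 of scrambled, and was chosen by the no-feature share itself. Fewer libraries and a different share cannot be told apart in it, and the reason for a lost call was not tested. Adding the no-feature share to the fit left 19 calls, and leaving out aCSF replicates 2 and 4 together left 9. Among animals numbered from 18 (4 aCSF, 4 oligonucleotide) Prmt8 had 1.37, Lyz2 1.34, Tyrobp 0.73 and C1qb 0.67. Among those numbered from 19 (4 aCSF, 12 oligonucleotide) Prmt8 had 0.76, Lyz2 1.36, Tyrobp 0.71 and C1qb 0.45, with adjusted p of 0.00818, 0.0345, 0.178 and 0.700. Klk6 had 1.15 (adjusted p = 0.0964) in the first set and 1.69 (adjusted p = 0.178) in the second, and Cd52 had 1.69 (adjusted p = 0.0327) and 0.99 (adjusted p = 0.731). Sort1 had 0.76 in the animals numbered from 18 and 0.22 in those from 19, and Rps26 had 0.67 and 0.31, differences that were not tested.

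The exception among the called genes was 1110038B12Rik, a noncoding gene whose introns hold small nucleolar RNAs. It had 9.78 to 25.6 CPM in aCSF (median 18.2), 87.2 to 134 with AON12.1 (median 97.8) and 10.6 to 27.6 with scrambled (median 18.9). The AON12.1 libraries stood wholly apart, and the scrambled and aCSF ranges coincided. Its mean of 1.34 (adjusted p = 1.29e-07) thus joins 2.53 for AON12.1 with 0.14 for scrambled (adjusted p = 0.83), and the difference was 2.39 (95% interval 2.099 to 2.69, adjusted p = 5.17e-15). Of 19 tested host and nuclear noncoding genes it was the 1 called, with a median of -0.12. The linker histone gene Hist1h1c had 0.92 with AON12.1 and -0.25 with scrambled, a difference of 1.16 (adjusted p = 3.45e-05), and was not called in the mean (0.33, adjusted p = 0.338).

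Levels of the targeted gene overlapped in the 3 YAC128 groups. Mouse Htt had 84.2 to 130.4 CPM in aCSF, 71.3 to 121 with AON12.1 and 75.4 to 119.5 with scrambled, each with a median of 102 (-0.06 ± 0.10, adjusted p = 0.866). The deposited feature NM_001388492, present at 119 to 188 CPM in YAC128 aCSF and 0.00 to 7.06 CPM in WT, had 94.4 to 177 CPM with AON12.1 and 104 to 169 with scrambled (-0.05 ± 0.12, adjusted p = 0.894). Gene counts from the 3' end hold no value for a single exon or for protein cleavage.

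Lists for sensing of foreign nucleic acid and for cell stress held 0 called genes in edgeR's test. Of all 28 lists without a call, 6 held a gene called by DESeq2 and 1 a gene called by voom. Over all 10679 genes tested, 6.58% were higher and 5.46% lower at an unadjusted p under 0.05. In all, 5313 of them had a higher value and 5366 a lower value. In the innate sensing and NF-kB list 11 of 34 members were tested, with a median of -0.02, 3 higher and 1 lower at an unadjusted p under 0.05, and Nfkb2, an NF-kB subunit, at 0.57 (adjusted p = 0.215). Interferon response and MHC class I genes had 16 of 46 tested and a median of 0.07, with 3 higher and 1 lower at an unadjusted p under 0.05. They included Ifit3b at -0.55 (adjusted p = 0.26) and Ifitm2 at 0.55 (adjusted p = 0.354). Heat shock genes had a median of -0.09 (20 of 27 lower, Dnajb1 at -0.48, adjusted p = 0.131), p53 targets 0.07 (15 tested, Cdkn1a at 0.60, adjusted p = 0.0668), glucocorticoid response genes 0.07 (19 tested) and unfolded protein response genes -0.02 (26 tested). Genes of paraspeckles and of proteins that bind phosphorothioate strands had a median of -0.03 over 34 tested (the RNA-binding protein gene Cirbp had -0.38 and was called by DESeq2), and endocytosis, lysosome and autophagy genes 0.02 over 57. The median standard error over tested genes was 0.136 on the log2 scale.

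The remaining lists held 0 genes called by edgeR too, and DESeq2 called Cox7c among the respiratory chain genes. Of all genes tested, 49.8% had a higher value. The medians of these lists were 0.16 for the mitochondrial genome (8 of 9 tested genes higher, mt-Nd5 at 0.29, adjusted p = 0.224), 0.07 for nuclear respiratory chain genes (57 of 73 higher) and 0.06 for glycolysis genes (17 of 21 higher). Proteasome genes had 0.01 over 31 and cholesterol and fatty acid synthesis genes -0.05 over 29. Histone genes had 0.06 over 14, oligodendrocyte precursor genes 0.02 over 22, endothelial and mural genes 0.09 over 27, and fibroblast and meningeal genes 0.08 over 7.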

How the data were processed

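Striatal RNA of 32 mice was sequenced from the 3' end by a modified mcSCRB-seq method, with 100 ng of total RNA per sample and an oligo-dT primer that holds a sample barcode and a molecular identifier, per the labels' protocols. The submitters' processing notes name FastQC, cutadapt 2.10, STAR 2.7.5a and HTSeq 0.12.4 and the build GRCm39. Collapse by identifier and use of strand are not given in the sources used here. The deposited files hold raw counts per gene, not normalized by the authors: 55415 features and 5 summary lines, which stayed out of library sizes and tests. The share of counts in no feature ranged from 17.0% to 33.7% over the 24 YAC128 libraries. Symbols came from a GRCm38 annotation by Ensembl identifier (52081 features, 99.806% of counts).

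In R 4.3.3, edgeR 4.0.16 kept 10679 genes (filterByExpr, minimum count 10, minimum total 15) and fitted all 32 libraries with TMM and 1 coefficient per group. The common biological coefficient of variation was 0.167, with 28 residual degrees of freedom. The main contrast gave each oligonucleotide group a weight of 0.5 against aCSF, and adjusted p-values use the Benjamini-Hochberg method over all tested genes. The fit was tested on simulated data. No pair of libraries within a group matched within sampling noise (lowest chi-square per degree of freedom 1.86). DESeq2 1.42.0, limma 3.58.1 (voom), other scalings, filters, covariates and left-out libraries were alternatives.

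The members of the comparison and the 37 gene lists were chosen with earlier results of these data known. Named genes are the called ones, up to 15 per direction (no predicted or Y-linked genes and no Xist), up to 3 per list by smallest p, Htt and NM_001388492; others are said to be chosen after their values were seen. Group levels are TMM-normalized CPM computed from the counts.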

Additional observations from a re-analysis of the deposited data

Results flagged for a closer look

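Of 201 sets of 8 libraries (67 genes given a fold change, in each YAC128 group) 19 held a library set apart from the others by more than Dixon's 95% limit, and chance flags about 1 in 20 such sets. In the aCSF group, Ttr stood at 3191 CPM in replicate 4, Adssl1 at 53.2 CPM in replicate 5 and Cx3cr1 at 38.4 CPM in replicate 1. In aCSF replicate 2, Hyi (115 CPM), Gpx3 (267 CPM), Dnajb1 (234 CPM) and Rspo1 (43.1 CPM) were high. AON12.1 replicate 2 was high for Apod (806 CPM), C1qc (146 CPM), Adora2a (128 CPM), Hpca (2497 CPM), Shisa9 (102 CPM) and Hbb-bs (1076 CPM). In the scrambled group, replicate 3 was high for Tyrobp (261 CPM), Cd52 (17.9 CPM) and Ifit3b (17.9 CPM), replicate 2 for Laptm5 (94.2 CPM) and replicate 7 for S100b (787 CPM). The enkephalin precursor Penk was low in scrambled replicate 5 (1340 CPM), the 1 lowest library among these.

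The oligonucleotides differed from each other for 2 of the 24 called genes by the test of the difference itself (edgeR's quasi-likelihood test). AON12.1 exceeded scrambled by 2.39 on the log2 scale for 1110038B12Rik (adjusted p = 5.17e-15) and by 1.19 for C4b (adjusted p = 6.67e-06), in 8 of 8 AON12.1 libraries against the highest scrambled library in each case. Of the other genes given a fold change, Hist1h1c differed by 1.16 (adjusted p = 3.45e-05) and Nalcn by -0.71 (adjusted p = 0.0157).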

How the results depend on the processing

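The count of called genes was 24, and 23 with both oligonucleotides apart from aCSF. It was within 1.5 times of these with DESeq2 size factors, upper-quartile scaling, the stricter filter, voom, the no-feature share as a covariate and that share with the number series. With the oligonucleotide libraries as 1 group it was 28, where the count with both does not exist. It was 55 (53 with both) without a filter, 80 (74) with DESeq2, 13 (12) with only the 24 YAC128 libraries, 40 (38) with the number series as a covariate, 8 (7) with cortex and choroid plexus scores, 5 (4) where at most 25% of counts lay in no feature, 461 (409) in animals numbered from 18 and 4 (3) in those from 19. With adjusted p under 0.05 in each single contrast, 3 genes held. Chosen after seeing the data, leaving out aCSF replicate 4 with the share as a covariate gave 10 (9), and leaving out aCSF replicates 2 and 4 gave 9 (8). Without 1 library the count ran from 9 (aCSF replicate 4) to 101 (aCSF replicate 8), and with both from 8 to 95.

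Signs changed for values near 0. Cx3cr1 had -0.0093 with upper-quartile scaling, -0.0065 with the number series, -0.058 at a share up to 25%, -0.20 in animals from 18, -0.072 without aCSF replicates 2 and 4, and -0.060 to 0.11 without 1 library. Tmem119 had 0.019 in voom, 0.20 in animals from 18 and -0.093 to 0.066 without 1 library, and P2ry12 0.35 in animals from 18. NM_001388492 had 0.045 with the share and 0.050 with the tissue scores as covariates, 0.074 at a share up to 25%, 0.058 in animals from 19, 0.072 with share and number series (Htt 0.023) and 0.032 without aCSF replicate 4 with the share. Ttr had 0.65 at a share up to 25% and 0.29 in animals from 19. The causes were not tested. No paired analysis was possible because the labels give animal numbers and no replicate number shared between groups. Genes that did not reach the filter's minimum count in enough libraries were not tested. The filter kept 16 of 46 interferon response and MHC class I genes and 11 of 34 innate sensing and NF-kB genes. The absence of calls in these lists does not cover their untested members.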
